A study of Mus musculus with 12 samples.

Results

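A pair of MLL-AF9 leukemias was compared in mouse bone marrow cells before any Cre recombinase was given: one with a wild type Hoxa cluster and one with a Hoxa cluster flanked by loxP sites. The members were the 6 libraries, of 12 in the series, that carried the control virus: WT-GFP 1 to 3 and Hoxa-flox 1 to 3. In the labels both groups are leukemic cells of adult bone marrow that carry MA9 (MLL-AF9). The WT-GFP cells are labelled as wild type for Hoxa and of strain C57BL/6, and the Hoxa-flox cells as Hoxa cluster floxed and of strain C57BL/6J. Cells of both groups were kept overnight in RPMI medium with 10% fetal calf serum, IL-3, IL-6 and GM-CSF at 10 ng/mL each and SCF at 100 ng/mL, spinoculated with a control GFP retrovirus and sorted for high GFP. Total RNA went into stranded libraries depleted of ribosomal RNA. The labels do not say how many leukemias or mice each group came from, or whether the 3 libraries of a group are separate cultures. The p-values below therefore measure only the spread between these libraries, which may be technical. Genotype, leukemia and labelled strain differ between the groups together, so their parts in any difference cannot be told apart.

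MLL-AF9 joins the chromatin regulator MLL to AF9, a component of a transcription elongation complex, and keeps genes such as the Hoxa genes and Meis1 active in myeloid progenitors. Cells transformed by it stand at a myeloid stage between granulocyte-macrophage progenitors and monocytes or neutrophils, and leukemias differ in how far along this path they have gone. Early cells carry Kit and Cd34. Promyelocytes then make the proteins of the primary granules, later neutrophil precursors those of the secondary granules, and macrophages make complement, scavenger receptors and lysosomal proteases.

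The deposited values are read as FPKM: fragments counted on a gene, divided by its transcript length and by the size of the library. Differences are those of mean log2(FPKM + 1), Hoxa-flox minus WT-GFP, a scale that understates the change of genes of low level. The test was limma's, over 12941 symbols whose mean reached 1 FPKM, and a gene past the threshold has a Benjamini-Hochberg adjusted p under 0.05. Levels are given per library, with WT-GFP 1, 2 and 3 first and Hoxa-flox 1, 2 and 3 after the word "against". Estimated depth was about 12755000 to 18929000 fragments in WT-GFP and 13404000 to 15072000 in Hoxa-flox.

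Of the 12941 genes, 3678 (28.4%) passed, 1885 (14.6%) higher and 1793 (13.9%) lower in Hoxa-flox, with a median difference of 0.01 over all genes. The difference exceeded 2 on the log2 scale, a fold of 4, in 203 rises and 260 falls. The library Hoxa-flox 3 stood apart from the other 2 of its group. Across genes, which are not independent replicates, log2 levels correlated at 0.987 between Hoxa-flox 1 and 2, at 0.917 and 0.924 between these and Hoxa-flox 3, and at 0.984 to 0.989 among the WT-GFP libraries. The median SD per gene was 0.11 in WT-GFP and 0.29 in Hoxa-flox. Without Hoxa-flox 3, 7614 genes (58.8%) passed, 3831 (29.6%) higher and 3783 (29.2%) lower. Without WT-GFP 1, 2 or 3 the number was 2426, 2052 or 1961. A count for a list that is near the share over all genes says little about its members. In 6161 genes (47.6%) the groups did not overlap, with Hoxa-flox higher in 3151 (24.3%) and lower in 3010 (23.3%). In 1214 genes (9.38%) Hoxa-flox 1 and 2 lay below and Hoxa-flox 3 above every WT-GFP library, and in 1016 (7.85%) the reverse held. For many lists below, medians are therefore also given for Hoxa-flox 1 and 2 and for Hoxa-flox 3 by themselves. The plot of Hoxa-flox 3 against Hoxa-flox 1 and 2 shows both kinds of gene.

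**Figure D1:**
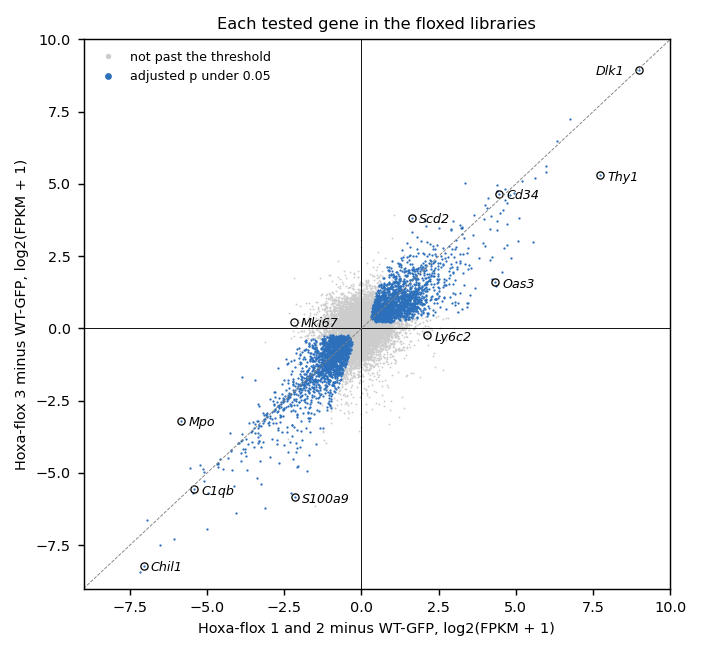
Difference from the WT-GFP mean, in log2(FPKM + 1), of the mean of Hoxa-flox 1 and 2 (x axis) and of Hoxa-flox 3 (y axis) for the tested genes, 1 point a gene, with genes named in the text marked. Dlk1 and Cd34 lie high and C1qb and Chil1 low on both axes, while Mki67 lies below 0 on the x axis and above 0 on the y axis.

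Both groups carried the leukocyte markers that the label calls for. Ptprc (CD45) stood at 97.3, 111 and 105 against 53.9, 57.8 and 77.1 FPKM, and the myeloid transcription factor Spi1 (PU.1) at 314, 269 and 273 against 239, 216 and 148 FPKM. Of 15 defining markers of B cells, T cells, stroma, endothelium and erythroid cells, 11 had a row, 1 was at 0 in all 6 libraries, 9 stayed under 1 FPKM in all 6, and the highest was Alas2 at 1.77 FPKM in WT-GFP 3. The summed level of the B lymphoid list (14 of 18 genes with a row) was 9.61 to 13.4 FPKM in WT-GFP and 14.04 to 29.6 FPKM in Hoxa-flox. That of the erythroid list (12 of 20) was 74.1 to 81.1 FPKM in WT-GFP and 50.7 to 69.9 FPKM in Hoxa-flox, and that of the endothelial list (15 of 16) 104 to 112 FPKM in WT-GFP and 139 to 222 FPKM in Hoxa-flox. The stroma list (16 of 18) summed to 7.83 to 8.55 FPKM in WT-GFP and 53.6 to 267 FPKM in Hoxa-flox and the T and NK list (15 of 23) to 58.5 to 124 FPKM in WT-GFP and 66.1 to 304 FPKM in Hoxa-flox, where Thy1, a member of both, made up most of the Hoxa-flox sum. Eosinophil genes (8 of 10) summed to 27.4 to 28.6 FPKM in WT-GFP and 2.81 to 6.40 FPKM in Hoxa-flox. Siglecf, the 1 member high enough to be tested, fell by 2.96. In bulk RNA, fewer cells of a type and less RNA per cell cannot be told apart, here and in every result below.

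Genes of stem and progenitor cells were mostly higher in the floxed leukemia. Of 17 tested, 9 rose and 2 fell, with a median of 1.06, the same in Hoxa-flox 1 and 2 (1.06) and in Hoxa-flox 3 (1.07). Without Hoxa-flox 3 the counts were 12 and 4. Cd34 (chr1:194938819-194961279, plus strand), a surface protein of early progenitors, was at 2.02, 1.93 and 2.16 against 65.9, 64.8 and 75.9 FPKM (log2 difference 4.52 ± 0.12 SE, limma adjusted p = 7.5e-06). Kit (chr5:75574916-75656722, plus strand), the receptor of SCF, was at 4.99, 5.44 and 5.32 against 38.4, 35.6 and 32.0 FPKM (log2 difference 2.54 ± 0.12 SE, limma adjusted p = 4.12e-05). In both genes the 3 Hoxa-flox libraries lay close together and far above all WT-GFP libraries. Gata2, a factor of early progenitors and mast cells, was at 0.124, 0.128 and 0.0996 against 7.79, 7.64 and 13.7 FPKM (log2 difference 3.21 ± 0.24 SE, limma adjusted p = 0.000237). Thy1, another surface antigen of early cells, was at 0.278, 0.0401 and 0.0622 against 243, 228 and 43.3 FPKM (log2 difference 6.91 ± 0.64 SE, limma adjusted p = 0.000627). Hoxa-flox 3 had less Thy1 than the other 2 floxed libraries but still far more than any WT-GFP library. Flt3 rose by 1.52 from near 0 to 2.07, 2.61 and 1.93 FPKM in Hoxa-flox, Erg by 1.30 and Sox4 by 1.06. The 2 falls went the other way: Prom1 was at 29.7, 33.5 and 28.4 against 8.37, 7.66 and 6.78 FPKM and Myb, a factor that keeps progenitors cycling and immature, at 472, 476 and 463 against 222, 218 and 184 FPKM (log2 difference -1.18 ± 0.13 SE, limma adjusted p = 0.00127). Genes of long-term stem cells were low in both leukemias. Hlf, Mecom, Procr and Fgd5 all stayed under 1 FPKM in every library and were not tested.

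**Figure D2:**
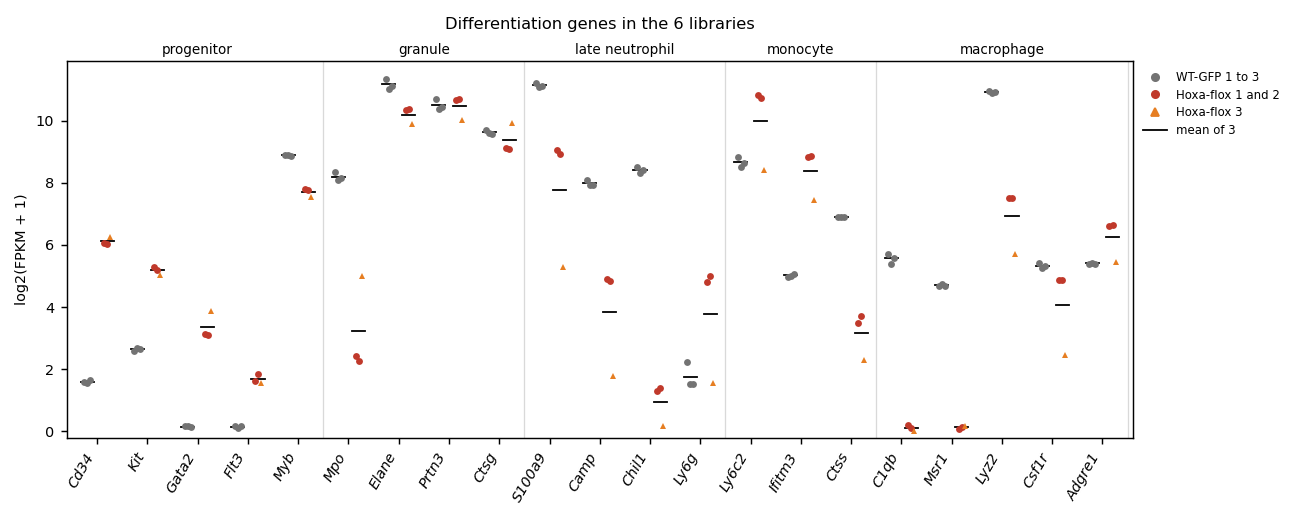
log2(FPKM + 1) of genes of differentiation state in each of the 6 libraries (grey WT-GFP 1 to 3, red Hoxa-flox 1 and 2, orange triangle Hoxa-flox 3, bar the mean of 3), grouped by stage. Cd34 and Kit lie higher in all 3 Hoxa-flox libraries, and Mpo, Chil1 and C1qb lower.

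Among 22 tested transcription factors of myeloid and other lineages, 4 rose and 6 fell (median -0.33; -0.16 in Hoxa-flox 1 and 2 and -0.59 in Hoxa-flox 3). The falls included factors of monocytes, macrophages and dendritic cells. Klf4 was at 6.98, 5.43 and 4.17 against 0.548, 0.749 and 0.167 FPKM (log2 difference -2.13 ± 0.23 SE, limma adjusted p = 0.00125), and Maf fell by 1.76. Id2, an inhibitor of E proteins, was at 25.9, 26.3 and 23.5 against 1.30, 0.679 and 0.827 FPKM (log2 difference -3.77 ± 0.16 SE, limma adjusted p = 2.91e-05). Bcl11a, a repressor used in B and dendritic cells, was at 12.6, 11.2 and 11.8 against 0.207, 0.128 and 0.0339 FPKM (log2 difference -3.52 ± 0.14 SE, limma adjusted p = 2.37e-05). For all of these the groups did not overlap. The granulocytic factors Cebpe and Gfi1 did not pass, at 90.2, 74.8 and 81.3 against 72.8, 79.1 and 41.5 FPKM and 170.2, 153 and 143 against 170.3, 171 and 73.7 FPKM, where Hoxa-flox 3 was the lowest library for both. Cebpa, which starts the granulocyte-monocyte programme, was at 98.4, 80.5 and 81.1 against 186, 198 and 78.6 FPKM, higher in Hoxa-flox 1 and 2 alone. Over the whole floxed group its difference was 0.72 (limma adjusted p = 0.178). With 1 library left out, its limma adjusted p ranged from 0.000203 to 0.406. The counts were 6 and 9 without Hoxa-flox 3, and 1 to 2 rises and 6 falls without any 1 of the other 5 libraries. Myc was among the rises (0.61, limma adjusted p = 0.0245), a call lost without any 1 of those 5.

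Hoxa9, Hoxa10 and Hoxa11 were higher with the floxed cluster, and no Hoxa gene fell. Summed over the 8 of 11 with a row, they came to 292 to 322 FPKM in WT-GFP and 505 to 528 FPKM in Hoxa-flox. Of 7 tested, 3 rose. Hoxa11 (chr6:52242106-52245810, minus strand) was at 0.741, 0.758 and 0.452 against 41.0, 38.9 and 35.0 FPKM (log2 difference 4.58 ± 0.14 SE, limma adjusted p = 1.07e-05), so that it was near absent in the wild type leukemia. Hoxa10 (chr6:52231197-52240854, minus strand) was at 38.5, 35.2 and 38.4 against 127, 131 and 109 FPKM (log2 difference 1.68 ± 0.12 SE, limma adjusted p = 0.000201). Both genes separated the groups without overlap. Hoxa9 (chr6:52223100-52231089, minus strand) was at 183, 159 and 159 against 235, 217 and 257 FPKM (log2 difference 0.50 ± 0.13 SE, limma adjusted p = 0.0295, a call lost without WT-GFP 2 or 3 or Hoxa-flox 1 or 2). For this smaller difference the highest limma adjusted p with 1 library left out was 0.134. Hoxa7 was at 46.0, 36.6 and 42.2 against 42.6, 40.5 and 53.2 FPKM and Hoxa4 at 3.29, 5.41 and 5.70 against 3.24, 4.01 and 5.31 FPKM, each with groups that overlapped. Hoxa2 was at 48.9, 54.3 and 49.4 against 76.0, 76.5 and 44.0 FPKM, above WT-GFP in Hoxa-flox 1 and 2 and below it in Hoxa-flox 3 (0.32, limma adjusted p = 0.342). Hoxa13 was listed at 0 in WT-GFP and at 0.672, 0.334 and 0.160 FPKM in Hoxa-flox, too low to be tested. The 3 genes that rose lie next to each other in the 5′ part of the cluster. Outside the cluster, Hoxb4 fell by 1.38 and Hoxb13 was at 5.70, 4.18 and 4.85 against 5.64, 5.13 and 5.48 FPKM. Another 14 Hox genes with a row were below the level at which genes were tested.

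TALE homeodomain proteins bind DNA together with Hoxa9, and 3 of 5 tested rose. Pbx3 (chr2:34171457-34373142, minus strand) was at 6.501, 3.61 and 4.90 against 169, 159 and 143 FPKM (log2 difference 4.75 ± 0.19 SE, limma adjusted p = 2.37e-05). Meis1 was at 21.0, 24.2 and 22.5 against 51.8, 55.3 and 74.6 FPKM (log2 difference 1.37 ± 0.16 SE, limma adjusted p = 0.0016), and Pbx4 rose by 1.02. Pbx3 and Meis1 each have several rows in the table, of which the highest was used. Pknox1 was at 24.5, 22.0 and 24.9 against 20.0, 17.9 and 10.5 FPKM and did not pass.

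Of 26 tested targets of MLL fusions, 12 rose and 8 fell (median 0.34; 13 and 9 without Hoxa-flox 3, and 11 to 12 and 4 to 6 without any 1 of the other 5 libraries). Targets thus moved both ways. Msi2 (chr11:88339382-88718513, minus strand), an RNA-binding protein of stem cells, was at 0.887, 0.933 and 1.38 against 31.0, 32.1 and 38.9 FPKM (log2 difference 4.08 ± 0.16 SE, limma adjusted p = 2.36e-05). Fut8, a fucosyltransferase, was at 25.04, 24.7 and 25.9 against 185, 203 and 281 FPKM (log2 difference 3.07 ± 0.17 SE, limma adjusted p = 7.61e-05). Zfp521 was at 3.01, 3.48 and 4.10 FPKM in Hoxa-flox and Hmga2 at 6.12, 13.2 and 7.87 FPKM in Hoxa-flox, both from near 0 in WT-GFP. Cdk6, a kinase of the G1 phase, was at 205, 192 and 196 against 532, 536 and 346 FPKM (log2 difference 1.22 ± 0.20 SE, limma adjusted p = 0.00526), and Runx2 at 17.2, 21.7 and 17.7 against 57.9, 67.9 and 81.4 FPKM (log2 difference 1.81 ± 0.16 SE, limma adjusted p = 0.000583). In the other direction, Mbnl1, a splicing regulator, was at 589, 591 and 562 against 204, 187 and 263 FPKM (log2 difference -1.42 ± 0.16 SE, limma adjusted p = 0.00139), and Runx1 at 101, 93.7 and 103 against 57.7, 58.3 and 39.3 FPKM (log2 difference -0.95 ± 0.17 SE, limma adjusted p = 0.00859). Jmjd1c rose by 1.11 (lost without WT-GFP 1 or 3), while Arid2 (57.0, 62.1 and 58.9 against 58.7, 61.5 and 60.1 FPKM) did not pass.

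The fusion partners differed from each other. Kmt2a, which encodes MLL, was at 72.8, 70.8 and 70.8 against 71.1, 74.5 and 77.7 FPKM (log2 difference 0.06 ± 0.10 SE, limma adjusted p = 0.709), with overlapping groups. Mllt3 (chr4:87769925-88033364, minus strand), which encodes AF9, was at 1.17, 1.57 and 1.69 against 35.4, 48.8 and 55.2 FPKM (log2 difference 4.24 ± 0.20 SE, limma adjusted p = 3.68e-05). The ratio of means was 31.5, and the lowest Hoxa-flox library had 35.4 FPKM. The row gives no split between the mouse gene and the part of AF9 in the fusion, so neither level can be assigned to one of them. Among 23 genes of MLL complexes and elongation factors, 2 rose and 5 fell (3 and 9 without Hoxa-flox 3, and 1 and 3 to 4 without any 1 of the other libraries). Mllt1, which encodes the AF9 relative ENL, fell by 1.12 from 39.0, 30.3 and 33.0 FPKM in WT-GFP to 13.8, 15.4 and 16.3 FPKM in Hoxa-flox. Dot1l, the H3K79 methyltransferase bound by AF9, was at 23.8, 21.5 and 23.1 against 16.4, 18.8 and 16.2 FPKM (log2 difference -0.40 ± 0.12 SE, limma adjusted p = 0.0447, a call lost without any 1 library but Hoxa-flox 3 and in a fit of all 4 groups). Men1, the menin cofactor of MLL, was at 13.5, 12.6 and 13.2 against 27.8, 26.5 and 15.9 FPKM, and its call was lost without any 1 of the libraries other than Hoxa-flox 3 (limma adjusted p up to 0.136). Of 21 Polycomb genes 1 rose, Kdm2b (lost without WT-GFP 1 or 2 or Hoxa-flox 2), and 1 fell, Phc3. Without Hoxa-flox 3, 7 rose and 8 fell, against 29.6% and 29.2% of all tested genes.

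**Figure D3:**
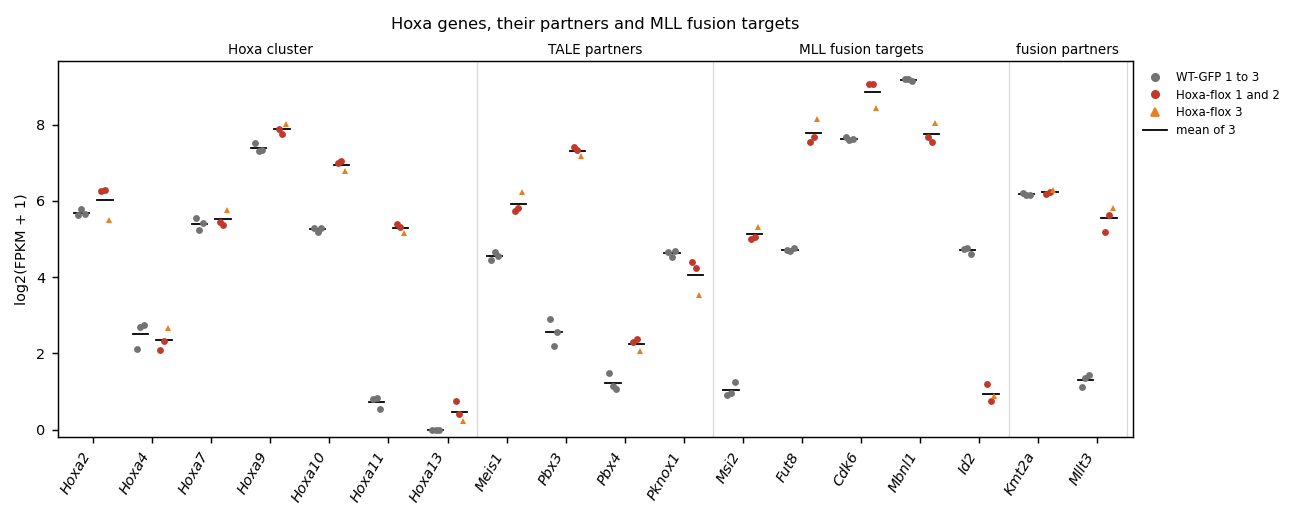
log2(FPKM + 1) of the Hoxa genes, TALE partners, MLL fusion targets and fusion partners in each of the 6 libraries (grey WT-GFP, red Hoxa-flox 1 and 2, orange triangle Hoxa-flox 3, bar the mean of 3). Hoxa10, Hoxa11, Pbx3, Msi2, Fut8 and Mllt3 lie higher in all 3 Hoxa-flox libraries, and Kmt2a lies at 70.8 to 77.7 FPKM in all 6.

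Proteins of the primary granules differed gene by gene. Of 12 tested, 4 fell and none rose (median -0.18; 1 rise and 6 falls without Hoxa-flox 3). Mpo (chr11:87793581-87804413, plus strand), myeloperoxidase, was at 326, 269 and 282 against 4.42, 3.799 and 31.1 FPKM (log2 difference -4.96 ± 0.70 SE, limma adjusted p = 0.00311). It was lowest in Hoxa-flox 1 and 2 and intermediate in Hoxa-flox 3. Prss57, a serine protease of the same granules, was at 20.4, 16.4 and 17.4 against 5.77, 4.10 and 1.83 FPKM (log2 difference -2.04 ± 0.32 SE, limma adjusted p = 0.00448), and Ctsc, which activates the granule proteases, fell by 1.38. Elane, neutrophil elastase, was at 2603, 2082 and 2219 against 1293, 1318 and 943 FPKM (log2 difference -0.97 ± 0.22 SE, limma adjusted p = 0.018, a call lost without WT-GFP 1, 2 or 3). Prtn3 stayed high in both, at 1642, 1319 and 1375 against 1613, 1674 and 1033 FPKM, and Ctsg was at 838, 773 and 762 against 556, 542 and 964 FPKM. For Ctsg and Ms4a3 (234, 228 and 236 against 151, 151 and 386 FPKM) Hoxa-flox 1 and 2 lay below and Hoxa-flox 3 above every WT-GFP library.

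Genes of later neutrophils were lower in the floxed leukemia. Of 26 tested, 16 fell and none rose, with a median of -2.27, -1.68 in Hoxa-flox 1 and 2 and -3.34 in Hoxa-flox 3. Without Hoxa-flox 3, 20 fell and 4 rose, and without any 1 of the other libraries 11 to 16 fell. Chil1, a chitinase-like lectin of the specific granules, was at 365, 314 and 336 against 1.47, 1.62 and 0.140 FPKM (log2 difference -7.44 ± 0.32 SE, limma adjusted p = 2.91e-05). Camp, the cathelicidin of the secondary granules, was at 273, 243 and 244 against 28.6, 27.8 and 2.43 FPKM (log2 difference -4.15 ± 0.81 SE, limma adjusted p = 0.0105), and Ltf, lactoferrin, at 37.3, 29.3 and 38.4 against 5.99, 7.38 and 0.579 FPKM (log2 difference -2.98 ± 0.61 SE, limma adjusted p = 0.0126, a call lost without WT-GFP 1 or 3). Hoxa-flox 3 was the lowest library for all 3. Csf3r, the receptor of G-CSF, was at 120.2, 104 and 111 against 29.2, 30.02 and 13.8 FPKM (log2 difference -2.23 ± 0.29 SE, limma adjusted p = 0.00233). The calprotectin genes S100a8 and S100a9 were at 2037, 2250.5 and 2303 against 623, 672 and 70.6 FPKM and 2375, 2185 and 2221 against 528, 485 and 38.2 FPKM (differences -2.82 and -3.39, limma adjusted p = 0.0468 and 0.0413). The call of S100a9 was lost without WT-GFP 1, 2 or 3, and that of S100a8 also without Hoxa-flox 1. Ngp, at 1392, 1158 and 1199.9 against 453, 433 and 16.5 FPKM, did not pass, as the floxed libraries spread widely (limma adjusted p = 0.109). A few genes of this list were higher in Hoxa-flox 1 and 2 and not in Hoxa-flox 3: Padi4 was at 47.3, 42.5 and 42.6 against 111, 112 and 7.69 FPKM, Mmp9 at 24.6, 19.004 and 20.2 against 59.2, 61.1 and 6.27 FPKM and Ly6g at 3.73, 1.86 and 1.86 against 27.0, 30.8 and 1.95 FPKM.

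The macrophage programme of the wild type leukemia was low in the floxed one. Of 23 tested genes, 18 fell and 1 rose, Mmp12, with a median of -2.48 (-2.39 and -2.86 in Hoxa-flox 1 and 2 and in Hoxa-flox 3). The counts were 19 and 2 without Hoxa-flox 3 and 17 to 18 and 1 without any 1 of the other libraries. Promoters of falling genes are shown first, since PU.1, whose transcript was present in both leukemias, is known to bind the core GAGGAA. Among the 250 bases before the RefSeq start, GAGGAA was found on either strand in 10 of the 15 tested genes of the list that have a promoter in the RefSeq table (66.7%). It was found in 8 of the 13 of these that fell and in 2 of the 2 that did not. The share over all 27025 symbols with a promoter was 25.9%, and over the 8464 tested ones 26.3%. The promoters of 3 genes with small p-values and with a match follow, 5′ to 3′ on the strand of the gene (build GRCm38.p6). The match is in capitals. A match is only a match of letters.
Spp1 (chr5:104434861-104435110, plus strand): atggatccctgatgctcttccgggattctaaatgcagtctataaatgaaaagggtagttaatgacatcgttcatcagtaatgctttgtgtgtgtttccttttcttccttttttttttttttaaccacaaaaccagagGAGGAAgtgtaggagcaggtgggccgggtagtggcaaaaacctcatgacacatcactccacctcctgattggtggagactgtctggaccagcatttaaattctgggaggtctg
C1qb (chr4:136886201-136886450, minus strand): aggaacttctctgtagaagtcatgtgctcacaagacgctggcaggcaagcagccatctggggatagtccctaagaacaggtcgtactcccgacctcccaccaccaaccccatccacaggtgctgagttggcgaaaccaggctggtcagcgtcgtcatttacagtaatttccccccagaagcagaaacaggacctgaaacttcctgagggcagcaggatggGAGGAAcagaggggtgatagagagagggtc
Apoe (chr7:19699189-19699438, minus strand): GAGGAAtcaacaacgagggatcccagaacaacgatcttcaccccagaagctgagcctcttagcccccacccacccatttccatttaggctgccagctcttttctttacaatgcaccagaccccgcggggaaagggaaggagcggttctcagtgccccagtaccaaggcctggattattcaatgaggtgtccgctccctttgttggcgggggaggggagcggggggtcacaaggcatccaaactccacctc

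Spp1, osteopontin, was at 306, 320.4 and 315 against 1.21, 1.93 and 2.17 FPKM (log2 difference -6.84 ± 0.16 SE, limma adjusted p = 5.43e-06). C1qb, one chain of complement C1q, was at 51.9, 41.3 and 46.8 against 0.148, 0.0736 and 0 FPKM, and its neighbours C1qa and C1qc on chromosome 4 at 28.4, 20.9 and 25.7 against 0, 0.0775 and 0 FPKM and 43.3, 37.3 and 34.6 against 0.0800, 0.239 and 0 FPKM. All Hoxa-flox libraries lay below 1 FPKM for the 3 chains and the scavenger receptor Msr1 (24.4, 25.9 and 24.6 against 0.0533, 0.104 and 0.125 FPKM). Apoe, apolipoprotein E, was at 274, 215 and 229 against 3.64, 4.46 and 7.40 FPKM (log2 difference -5.32 ± 0.23 SE, limma adjusted p = 3.15e-05), and Gpnmb, a glycoprotein of lipid-laden macrophages, at 263, 224 and 231 against 7.28, 5.65 and 0.952 FPKM (log2 difference -5.66 ± 0.52 SE, limma adjusted p = 0.00059). Mertk and Cd36, which bind dying cells and lipids, had levels of 3.65, 3.40 and 3.17 FPKM in WT-GFP for Mertk and 7.59, 5.19 and 5.99 FPKM in WT-GFP for Cd36, and were listed at 0 in all 3 Hoxa-flox libraries. Lysozyme, Lyz2, was at 1968, 1896 and 1921 against 182, 183 and 51.8 FPKM (log2 difference -3.99 ± 0.48 SE, limma adjusted p = 0.00172). Hmox1, heme oxygenase, fell by 2.48. Other genes of the lineage did not pass. Csf1r, the M-CSF receptor, was at 42.0, 36.9 and 39.1 against 28.6, 28.6 and 4.53 FPKM (limma adjusted p = 0.19), Cd68 at 125, 109 and 103 against 126, 129 and 23.1 FPKM and Slc40a1, the iron exporter, at 319.9, 297 and 338 against 295, 301 and 187 FPKM. Adgre1, which encodes F4/80, was at 41.1, 42.2 and 41.3 against 97.1, 99.4 and 42.9 FPKM, higher in Hoxa-flox 1 and 2 and in Hoxa-flox 3 near the WT-GFP level. Mmp12, the 1 rise, was at 13.4, 13.99 and 13.8 against 24.3, 28.8 and 24.9 FPKM (log2 difference 0.87 ± 0.12 SE, limma adjusted p = 0.00246).

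Monocyte genes were divided. Of 17 tested, 4 rose and 7 fell (7 and 7 without Hoxa-flox 3, and 1 and 3 to 7 without any 1 of the other libraries). The list median was -0.14 in Hoxa-flox 1 and 2 and -0.92 in Hoxa-flox 3. Ctss, a lysosomal protease, was at 118, 119.6 and 118 against 10.3, 12.1 and 3.97 FPKM (log2 difference -3.73 ± 0.35 SE, limma adjusted p = 0.000675), Fn1, fibronectin, at 99.1, 91.7 and 90.3 against 23.2, 19.7 and 2.39 FPKM (log2 difference -2.99 ± 0.71 SE, limma adjusted p = 0.0225, a call lost without WT-GFP 1, 2 or 3), and F13a1, a coagulation factor of monocytes, fell by 2.96 (lost without WT-GFP 1, 2 or 3). Ifitm3, an antiviral membrane protein, was at 30.4, 31.3 and 32.6 against 455, 459 and 172 FPKM (log2 difference 3.35 ± 0.38 SE, limma adjusted p = 0.00133). Ly6c2, the antigen of classical monocytes, was at 453, 364 and 396 against 1830.4, 1706 and 342 FPKM: Hoxa-flox 1 and 2 were above and Hoxa-flox 3 below every WT-GFP library. Ccr2, the receptor for Ccl2, was at 18.4, 23.2 and 22.2 against 46.1, 53.6 and 30.8 FPKM (difference 0.97), a call lost without any 1 of the libraries other than Hoxa-flox 3 (limma adjusted p up to 0.0745).

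The genes of MHC class II also moved in opposite ways. Cd74, the invariant chain, was at 38.5, 28.3 and 29.3 against 1.84, 1.72 and 1.15 FPKM (log2 difference -3.68 ± 0.18 SE, limma adjusted p = 4.77e-05). H2-Aa was at 11.2, 9.36 and 9.50 against 2.15, 2.67 and 0.272 FPKM (log2 difference -2.17 ± 0.39 SE, limma adjusted p = 0.00831), and H2-Eb1 fell by 2.07. H2-Ab1, the partner chain of H2-Aa, did not pass, at 11.01, 7.35 and 8.91 against 21.2, 24.2 and 8.12 FPKM. H2-Oa and H2-Ob, which modulate peptide loading, both rose. H2-Oa was at 0.579, 0.520 and 0.523 against 9.53, 5.83 and 2.59 FPKM and H2-Ob at 0.313, 0.280 and 0.337 against 11.1, 15.005 and 1.19 FPKM. The call of H2-Ob was lost without any 1 library but Hoxa-flox 3. Tcf4, the plasmacytoid factor that is also a fusion target, was at 4.95, 4.10 and 5.73 against 22.6, 25.3 and 23.0 FPKM (log2 difference 2.06 ± 0.14 SE, limma adjusted p = 0.000198). In the whole list of dendritic and class II genes 5 of 12 rose and 3 fell (8 and 3 without Hoxa-flox 3, and 3 and 3 without any 1 of the other libraries), while Ciita, the class II activator, stayed under 1 FPKM in all 6. In the list of mast cells and basophils, 3 of 6 rose (Kit, Gata2 and Hdc, a call lost without WT-GFP 1, 2 or 3; 3 rose and 2 fell without Hoxa-flox 3, and 2 to 3 rose without any 1 of the other libraries), while Cpa3 and Fcer1a stayed under 1 FPKM.

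Chemokines followed the macrophage genes in direction. Of 15 tested, 12 fell and 1 rose (12 and 3 without Hoxa-flox 3, and 9 to 11 and 1 without any 1 of the other libraries), with a median of -2.20. Ccl2, which draws monocytes, was at 40.8, 39.9 and 38.1 against 0.208, 0.108 and 0.388 FPKM (log2 difference -5.04 ± 0.14 SE, limma adjusted p = 7.84e-06). Ccl7, at 15.003, 18.9 and 19.3 FPKM in WT-GFP, was listed at 0 in all 3 Hoxa-flox libraries. Pf4, a chemokine of platelets and macrophages, was at 85.4, 101 and 94.3 against 2.83, 1.40 and 0.825 FPKM (log2 difference -5.20 ± 0.27 SE, limma adjusted p = 5.83e-05), and Cxcl3 was at 17.4, 16.4 and 17.2 against 0.227, 0.0443 and 0.143 FPKM (log2 difference -3.98 ± 0.14 SE, limma adjusted p = 1.56e-05). The tumour necrosis factor gene Tnf was at 13.5, 13.6 and 14.9 against 7.02, 6.14 and 7.31 FPKM (log2 difference -0.94 ± 0.12 SE, limma adjusted p = 0.00244). Cxcl9 was the rise, at 0.627, 0.186 and 0.637 against 9.87, 4.001 and 3.002 FPKM (log2 difference 2.04 ± 0.38 SE, limma adjusted p = 0.00934). Slpi, an inhibitor of neutrophil proteases, rose most of 25 inflammatory genes, at 78.8, 73.5 and 74.0 against 1893, 1826 and 522 FPKM (log2 difference 3.996 ± 0.49 SE, limma adjusted p = 0.00182). In that list 4 rose and 8 fell (6 and 13 without Hoxa-flox 3, and 3 to 4 and 3 to 7 without any 1 of the other libraries).

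Receptors by which myeloid cells sense their surroundings were lower in part. Of 21 chemokine and homing receptors 3 rose and 8 fell, counts of 5 and 10 without Hoxa-flox 3 and of 0 and 4 to 8 without any 1 of the other libraries. Their median was -0.11 in Hoxa-flox 1 and 2 and -1.19 in Hoxa-flox 3. C3ar1, the receptor of complement C3a, was at 11.96, 12.6 and 12.6 against 0.169, 0.234 and 0.225 FPKM (log2 difference -3.47 ± 0.13 SE, limma adjusted p = 1.82e-05). Cxcr4, which holds cells in the marrow, was at 156, 136 and 148 against 143, 135 and 56.2 FPKM and did not pass (limma adjusted p = 0.327). Itga4, an integrin of stem and myeloid cells, fell by 1.44. Of 23 pattern recognition genes 5 rose and 10 fell (8 and 10 without Hoxa-flox 3, and 3 to 5 and 8 to 9 without any 1 of the others). Their median was 0.01 in Hoxa-flox 1 and 2 and -0.82 in Hoxa-flox 3. Clec4n, which encodes dectin-2, was at 33.9, 35.1 and 33.5 against 0.703, 1.19 and 0.172 FPKM (log2 difference -4.42 ± 0.23 SE, limma adjusted p = 6.38e-05). Tlr7, a sensor of single-stranded RNA, was at 7.49, 8.01 and 7.74 against 0.686, 0.670 and 0.593 FPKM (log2 difference -2.41 ± 0.13 SE, limma adjusted p = 7.06e-05), and Tlr4, the endotoxin sensor, went the other way, at 19.6, 19.9 and 21.9 against 40.6, 41.9 and 45.1 FPKM (log2 difference 1.02 ± 0.11 SE, limma adjusted p = 0.0011). Of 15 Fc receptor and phagocyte oxidase genes 5 fell (9 fell and 4 rose without Hoxa-flox 3, and 2 to 5 fell without any 1 of the others). Their median was -0.45 in Hoxa-flox 1 and 2 and -1.20 in Hoxa-flox 3. Cybb, the catalytic subunit of the oxidase, was at 62.1, 67.8 and 65.1 against 7.48, 7.43 and 2.06 FPKM (log2 difference -3.45 ± 0.39 SE, limma adjusted p = 0.00142). The low-affinity receptor Fcgr3 (225, 201 and 206 against 291, 289 and 144 FPKM) did not pass.

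Of 28 lysosome genes 13 fell and none rose (18 and 3 without Hoxa-flox 3, and 7 to 13 and 0 without any 1 of the other libraries). The list median was -0.69, with -0.525 in Hoxa-flox 1 and 2 and -1.11 in Hoxa-flox 3. Ctse, cathepsin E, was at 60.7, 54.9 and 57.3 against 2.22, 2.42 and 0.330 FPKM (log2 difference -4.58 ± 0.36 SE, limma adjusted p = 0.000316), and Lgmn, the asparaginyl protease legumain, at 34.6, 30.7 and 30.4 against 1.10, 1.56 and 0.839 FPKM (log2 difference -3.94 ± 0.16 SE, limma adjusted p = 2.6e-05). Structural proteins of the organelle did not pass: Lamp1 was at 336, 312 and 309 against 309.5, 319.9 and 228 FPKM and Lamp2 at 86.7, 100.3 and 95.7 against 68.4, 79.4 and 83.5 FPKM. Ferritin heavy chain, Fth1, was at 2273, 1885 and 2016 against 744, 734 and 566 FPKM (log2 difference -1.60 ± 0.19 SE, limma adjusted p = 0.00162).

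The cells were cultured with SCF, IL-3, GM-CSF and IL-6, and the receptors of these cytokines differed in direction. Kit, the SCF receptor, rose as given above. Il6ra was at 18.8, 16.8 and 17.1 against 7.96, 6.98 and 3.52 FPKM (log2 difference -1.44 ± 0.26 SE, limma adjusted p = 0.0085). Csf2ra, the GM-CSF receptor chain, was at 267, 217 and 225 against 133, 132 and 53.8 FPKM (log2 difference -1.25 ± 0.35 SE, limma adjusted p = 0.04, a call lost without WT-GFP 1, 2 or 3). Il3ra was at 31.4, 24.5 and 25.5 against 89.4, 94.4 and 27.9 FPKM (limma adjusted p = 0.102), high in Hoxa-flox 1 and 2 only, and the chain shared by both receptors, Csf2rb, was at 147, 126 and 129 against 149, 148 and 121 FPKM. Of the 24 tested receptors 5 rose and 7 fell, with a median of -0.01 (10 and 9 without Hoxa-flox 3). Il2ra and Il13ra1 rose by 1.91 and 2.11, and Il7r fell from 3.49, 3.27 and 3.59 FPKM in WT-GFP to 0.133, 0.0264 and 0.108 FPKM in Hoxa-flox.

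Genes switched on by cytokine signals included 8 rises and 2 falls among 21 (13 and 4 without Hoxa-flox 3, and 4 to 6 and 2 without any 1 of the other libraries). Pim1, a kinase induced by STAT5, was at 72.0, 66.4 and 65.8 against 281, 294 and 197 FPKM (log2 difference 1.88 ± 0.17 SE, limma adjusted p = 0.000635). The STAT5 targets Cish and Socs3 were at 25.6, 19.6 and 20.8 against 64.5, 57.3 and 26.0 FPKM and 7.31, 6.74 and 6.32 against 18.4, 18.4 and 7.42 FPKM, higher in Hoxa-flox 1 and 2, and did not pass. Dusp6, a phosphatase induced by ERK, was at 44.3, 42.7 and 43.7 against 1.80, 2.35 and 13.01 FPKM (log2 difference -3.13 ± 0.58 SE, limma adjusted p = 0.00879). Spred1, a negative regulator of the same pathway, was at 6.20, 5.11 and 6.07 against 13.9, 17.0 and 28.4 FPKM (log2 difference 1.55 ± 0.26 SE, limma adjusted p = 0.00591), and Bcl6, a repressor of STAT5 targets, fell from 3.31, 2.32 and 2.91 FPKM in WT-GFP to 0.124, 0.206 and 0.0370 FPKM in Hoxa-flox.

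Cell cycle genes separated the floxed libraries from each other and not the groups. None of 31 mitosis genes passed, and of 32 S phase genes only Pole did. In 26 of the 31 and 26 of the 32, Hoxa-flox 1 and 2 lay below and Hoxa-flox 3 above every WT-GFP library, against 9.38% of all tested genes. The medians were -1.03 and 0.66 for mitosis and -0.50 and 0.88 for S phase, in Hoxa-flox 1 and 2 and in Hoxa-flox 3. Mki67, the proliferation antigen Ki-67, was at 78.2, 73.7 and 72.7 against 16.4, 14.9 and 88.5 FPKM (log2 difference -1.38 ± 0.64 SE, limma adjusted p = 0.154). Top2a, which untangles replicated DNA, was at 52.4, 51.0 and 52.9 against 29.3, 35.4 and 109.9 FPKM, and Ccnb1, cyclin B1, at 7.31, 7.76 and 8.63 against 3.16, 4.10 and 20.3 FPKM. Mcm6, a subunit of the replicative helicase, was at 46.5, 45.3 and 46.2 against 41.9, 43.2 and 99.8 FPKM. Without Hoxa-flox 3, 30 of the mitosis genes and 22 of the S phase genes fell. At an unadjusted p under 0.05, 4 of the 31 and 3 of the 32 differed between the 2 groups of 3.

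Of 18 tested cell cycle inhibitors and D cyclins, 3 rose and 4 fell (5 and 7 without Hoxa-flox 3, and 3 and 1 to 4 without any 1 of the other libraries). The shares over all tested genes were 14.6% and 13.9%. Ccnd1 and Ccnd2, cyclins D1 and D2, were at 11.3, 7.89 and 9.57 against 0.365, 1.33 and 0.492 FPKM (log2 difference -2.64 ± 0.25 SE, limma adjusted p = 0.000672) and 54.3, 46.2 and 42.5 against 9.09, 14.9 and 2.31 FPKM (log2 difference -2.58 ± 0.54 SE, limma adjusted p = 0.0137, a call lost without WT-GFP 1, 2 or 3). Cdk6 rose, as given above, while Cdk4 was at 100.4, 79.6 and 90.6 against 108, 107 and 218 FPKM and did not pass. Of 27 targets of p53, 8 fell and 1, Sesn1, rose (19 and 3 without Hoxa-flox 3, and 3 to 5 and 1 without any 1 of the other libraries). Gdf15 was at 7.90, 6.95 and 5.84 against 0.291, 0.633 and 0.205 FPKM (log2 difference -2.52 ± 0.19 SE, limma adjusted p = 0.000247), Mdm2, the ubiquitin ligase of p53, at 55.0, 63.3 and 65.9 against 32.9, 26.3 and 48.7 FPKM (log2 difference -0.80 ± 0.23 SE, limma adjusted p = 0.041, a call lost without any 1 library but Hoxa-flox 3), and Cdkn1a, the cell cycle inhibitor p21, at 105, 89.6 and 93.4 against 68.9, 77.2 and 95.7 FPKM (limma adjusted p = 0.253). Trp53 itself was at 41.6, 37.8 and 40.1 against 49.3, 45.6 and 59.2 FPKM (log2 difference 0.35 ± 0.13 SE, limma adjusted p = 0.0906). In the BCL2 family, Bcl2a1a and Bcl2a1d were at 22.0, 21.7 and 21.3 against 0.412, 0 and 0.829 FPKM and 4.98, 5.13 and 4.94 against 0.0968, 0.290 and 0.433 FPKM (limma adjusted p = 8.13e-05 and 0.000215). These 2 are near-identical copies, so the split of reads between them is uncertain. Mcl1 (166, 150.2 and 150.4 against 196, 209 and 183 FPKM) and Bcl2 (1.42, 1.69 and 1.49 against 0.965, 1.14 and 2.35 FPKM) did not pass.

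Genes induced by interferon were higher in the floxed leukemia, most of all in Hoxa-flox 1 and 2. Of 26 tested, 13 rose and none fell, with a median of 1.31, 1.95 in Hoxa-flox 1 and 2 and 0.44 in Hoxa-flox 3. Without Hoxa-flox 3, 24 rose and 1 fell, and without any 1 of the other libraries 3 to 5 rose. In 16 of the 26 all 3 Hoxa-flox libraries lay above every WT-GFP library, against 24.3% of all tested genes. In 5, Hoxa-flox 1 and 2 lay above and Hoxa-flox 3 below every WT-GFP library, against 7.85% of all tested genes. The interferon-stimulated response element, GAAANNGAAA on either strand, was found before the start of 9 of the 19 tested members with a RefSeq promoter (47.4%). It was found in 4 of the 8 that rose and in 5 of the 11 that did not. Its share over all 27025 symbols was 3.46%, and over the 8464 tested ones 3.20%. The promoters of Trim30a and Rsad2 follow as above (GRCm38.p6, strand of the gene), with the match in capitals.
Trim30a (chr7:104465194-104465443, minus strand): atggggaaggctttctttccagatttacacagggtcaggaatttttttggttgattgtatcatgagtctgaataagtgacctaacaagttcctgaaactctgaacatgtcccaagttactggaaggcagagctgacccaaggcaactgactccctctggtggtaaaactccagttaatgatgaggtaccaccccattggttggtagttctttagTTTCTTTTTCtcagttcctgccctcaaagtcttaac
Rsad2 (chr12:26456453-26456702, minus strand): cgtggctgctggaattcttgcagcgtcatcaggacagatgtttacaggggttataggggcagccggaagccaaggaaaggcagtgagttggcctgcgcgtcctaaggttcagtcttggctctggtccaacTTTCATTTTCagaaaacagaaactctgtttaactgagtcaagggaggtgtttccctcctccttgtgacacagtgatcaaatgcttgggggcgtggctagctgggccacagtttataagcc

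Oas3, a sensor of double-stranded RNA, was at 1.94, 2.46 and 1.97 against 60.1, 62.9 and 8.41 FPKM (log2 difference 3.42 ± 0.72 SE, limma adjusted p = 0.014, a call lost without WT-GFP 1, 2 or 3). Irf7, the factor that amplifies the response, was at 9.69, 8.15 and 8.06 against 77.8, 76.6 and 17.3 FPKM (log2 difference 2.33 ± 0.55 SE, limma adjusted p = 0.0222, a call lost without any 1 library but Hoxa-flox 3). Rsad2, viperin, was at 1.51, 1.69 and 1.82 against 21.7, 22.6 and 3.94 FPKM (log2 difference 2.37 ± 0.59 SE, limma adjusted p = 0.026, a call lost without any 1 library but Hoxa-flox 3), and Usp18, a brake on the receptor, at 2.54, 2.83 and 2.74 against 40.2, 39.5 and 5.80 FPKM (log2 difference 2.60 ± 0.68 SE, limma adjusted p = 0.0308, a call lost without any 1 library but Hoxa-flox 3). In these 4 genes Hoxa-flox 3 lay between WT-GFP and the other floxed libraries. Without Hoxa-flox 3 the differences were 4.33, 3.02, 3.12 and 3.46. With 1 library left out, the highest limma adjusted p was 0.0602, 0.0816, 0.093 and 0.103. Isg15 was at 6.79, 5.71 and 6.60 against 46.2, 43.1 and 8.22 FPKM and did not pass (limma adjusted p = 0.0629). Ifih1 and Trim30a also rose, at 15.8, 16.9 and 14.7 against 32.9, 29.4 and 29.8 FPKM and 14.2, 16.4 and 15.5 against 25.7, 24.3 and 19.9 FPKM. The call of Trim30a was lost without any 1 library but Hoxa-flox 3. The receptor chains Ifnar1 (26.5, 26.2 and 26.9 against 27.3, 28.9 and 21.0 FPKM) and Ifngr1 (138, 134 and 132 against 136, 134 and 141 FPKM) did not pass.

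Genes of glycolysis and of the hypoxia response were also higher. Of 31 tested, 18 rose and 1 fell, Pfkfb3, with a median of 1.37 (1.53 in Hoxa-flox 1 and 2 and 0.68 in Hoxa-flox 3). The counts were 27 and 2 without Hoxa-flox 3, and 15 to 16 and 1 without any 1 of the other libraries. The core to which HIF binds, ACGTG on either strand, occurred before the start of 19 of the 29 tested members with a RefSeq promoter (65.5%). It occurred in 12 of the 18 that rose and in 7 of the 11 that did not, against 25.5% of the 8464 tested symbols and 18.5% of all symbols with a promoter. The same letters are part of the E-box CACGTG. The promoters of Pgk1 and Egln3 follow as above (GRCm38.p6, strand of the gene), with matches in capitals.
Pgk1 (chrX:106186850-106187099, plus strand): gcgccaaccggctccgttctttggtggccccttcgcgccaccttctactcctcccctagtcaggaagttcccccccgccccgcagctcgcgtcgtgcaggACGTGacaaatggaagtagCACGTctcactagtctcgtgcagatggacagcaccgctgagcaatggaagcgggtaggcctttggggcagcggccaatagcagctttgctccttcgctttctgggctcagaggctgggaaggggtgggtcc
Egln3 (chr12:54203875-54204124, minus strand): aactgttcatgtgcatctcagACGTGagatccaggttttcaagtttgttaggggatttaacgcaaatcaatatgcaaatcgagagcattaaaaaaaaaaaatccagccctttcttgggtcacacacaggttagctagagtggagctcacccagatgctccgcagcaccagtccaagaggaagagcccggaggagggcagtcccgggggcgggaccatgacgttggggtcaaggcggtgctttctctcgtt

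Pgk1, phosphoglycerate kinase, was at 849, 718 and 746 against 2642, 2664 and 1791 FPKM (log2 difference 1.60 ± 0.22 SE, limma adjusted p = 0.00293). Aldoc, an aldolase, was at 3.49, 3.60 and 3.50 against 72.6, 69.8 and 31.7 FPKM (log2 difference 3.61 ± 0.31 SE, limma adjusted p = 0.000475), and Ldha, which makes lactate, at 237, 206 and 217 against 559, 560.2 and 474 FPKM (log2 difference 1.26 ± 0.14 SE, limma adjusted p = 0.00116). The mitophagy receptor Bnip3 and the HIF hydroxylase Egln3, both HIF targets, were at 7.47, 8.15 and 8.33 against 48.8, 47.2 and 25.9 FPKM and 11.1, 10.2 and 10.99 against 64.9, 66.0 and 27.6 FPKM (differences 2.16 and 2.09, limma adjusted p = 0.00145 and 0.00487). All 3 Hoxa-flox libraries exceeded WT-GFP for these genes, with Hoxa-flox 3 the lowest of the 3. The glucose carrier Slc2a1 was at 15.3, 15.5 and 14.2 against 47.1, 45.9 and 29.99 FPKM (log2 difference 1.37 ± 0.19 SE, limma adjusted p = 0.00293). Other HIF targets were higher in Hoxa-flox 1 and 2 and did not pass over the group: Car9 was at 6.81, 4.74 and 5.43 against 27.6, 32.2 and 7.09 FPKM and Adm at 0.119, 0.0514 and 0.0399 against 3.22, 3.37 and 0.252 FPKM. Vegfa was at 115, 102 and 102 against 162, 153 and 29.7 FPKM, with Hoxa-flox 1 and 2 above and Hoxa-flox 3 below every WT-GFP library, a pattern of 7 members of the list. Hif1a was at 59.1, 57.2 and 58.8 against 38.6, 42.3 and 62.5 FPKM (limma adjusted p = 0.259). Of 28 genes of the respiratory chain 6 rose and 1 fell, with a median of 0.21 (7 and 4 without Hoxa-flox 3, and 1 to 3 and 0 without any 1 of the others). Among all tested genes 14.6% rose and 13.9% fell, and without Hoxa-flox 3 the shares were 29.6% and 29.2%.

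**Figure D4:**
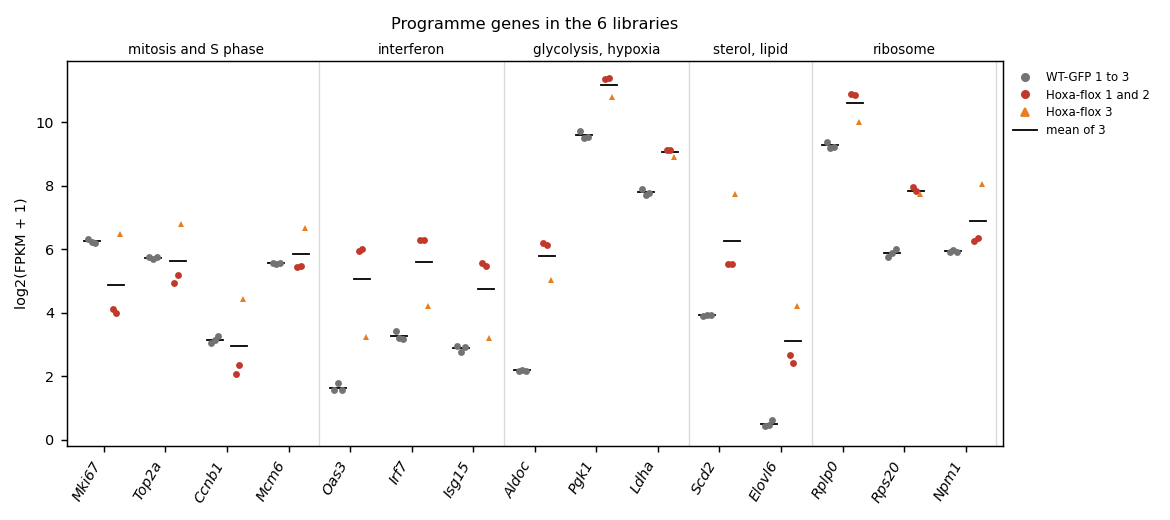
log2(FPKM + 1) of genes of the cell cycle, interferon response, glycolysis, lipid synthesis and ribosomes in each of the 6 libraries (grey WT-GFP, red Hoxa-flox 1 and 2, orange triangle Hoxa-flox 3, bar the mean of 3). For Mki67 and Ccnb1, Hoxa-flox 1 and 2 lie below and Hoxa-flox 3 above WT-GFP; for Oas3, Irf7 and Aldoc all 3 lie above it, with Hoxa-flox 3 the lowest.

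Transcripts of ribosomal proteins rose together. Of 33 tested, 27 rose and none fell, with a median of 1.13, 1.27 in Hoxa-flox 1 and 2 and 0.90 in Hoxa-flox 3, and all 33 rose without Hoxa-flox 3. Without any 1 of the other libraries 19 to 25 rose. Rplp0, of the ribosomal stalk, was at 669.5, 581 and 599.8 against 1894, 1861 and 1039 FPKM (log2 difference 1.32 ± 0.27 SE, limma adjusted p = 0.0121, a call lost without WT-GFP 2 or 3), Rps4x, of the small subunit, at 171, 172 and 172 against 511, 554 and 407 FPKM (log2 difference 1.498 ± 0.15 SE, limma adjusted p = 0.000892), and Rps20 at 52.9, 58.0 and 63.5 against 248, 226 and 212 FPKM (log2 difference 1.96 ± 0.13 SE, limma adjusted p = 0.000134). No library of one group overlapped the other in these genes. Ribosomal protein genes have many processed pseudogenes, so the level of single rows is uncertain. Of 31 factors that assemble ribosomes 9 rose, 1 to 6 without any 1 of the libraries other than Hoxa-flox 3, and 14 rose and 5 fell without Hoxa-flox 3. Npm1, nucleophosmin, was at 58.7, 62.0 and 59.0 against 74.9, 80.2 and 263 FPKM and Ncl, nucleolin, at 107, 96.3 and 89.9 against 81.8, 78.1 and 284 FPKM, where Hoxa-flox 3 was far above the other 5 libraries. Neither passed (limma adjusted p = 0.175 and 0.66).

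Genes of sterol and fatty acid synthesis were highest in Hoxa-flox 3. Of 28 tested, 8 rose and 1, the cholesterol exporter Abca1, fell, with medians of 0.32 in Hoxa-flox 1 and 2 and 1.13 in Hoxa-flox 3. Without Hoxa-flox 3, 14 rose and 5 fell, and without any 1 of the other libraries 3 to 7 rose. Scd2, a desaturase, was at 13.8, 14.3 and 14.1 against 45.2, 45.6 and 213 FPKM (log2 difference 2.36 ± 0.58 SE, limma adjusted p = 0.0247, a call lost without WT-GFP 1, 2 or 3), and Elovl6, an elongase, at 0.346, 0.371 and 0.515 against 5.31, 4.34 and 17.4 FPKM (log2 difference 2.60 ± 0.46 SE, limma adjusted p = 0.00732). Abca1 was at 7.62, 8.26 and 7.39 against 0.0347, 0.0275 and 0.0971 FPKM (log2 difference -3.06 ± 0.14 SE, limma adjusted p = 3.51e-05). In the stress programmes, Xbp1, a factor of the unfolded protein response, was at 134, 125 and 131 against 345, 357 and 249.7 FPKM (log2 difference 1.26 ± 0.17 SE, limma adjusted p = 0.00239), while Hspa5, the chaperone BiP, was at 322, 303 and 298 against 355, 320.0 and 409.7 FPKM and Atf4 at 178, 166 and 167 against 179, 183 and 212 FPKM, neither past the threshold.

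Immediate early genes, which cells switch on within minutes of a stimulus, differed in both directions. Of 24 tested, 6 rose and 4 fell (13 and 6 without Hoxa-flox 3, and 4 and 2 to 4 without any 1 of the other libraries). Over all tested genes 14.6% rose and 13.9% fell, and without Hoxa-flox 3 29.6% and 29.2%. Counts near these shares, here and in the lists below, say little about the members. Dusp5, a nuclear phosphatase of ERK, was at 2.35, 2.80 and 2.47 against 14.2, 15.3 and 11.1 FPKM (log2 difference 2.03 ± 0.16 SE, limma adjusted p = 0.000324). Fosl1, which encodes the AP-1 subunit Fra-1, was at 0.694, 0.653 and 0.571 against 2.67, 3.11 and 4.39 FPKM (log2 difference 1.40 ± 0.19 SE, limma adjusted p = 0.00256), and Maff, a small Maf factor, at 0.672, 0.628 and 0.997 against 4.43, 4.75 and 3.30 FPKM (log2 difference 1.54 ± 0.18 SE, limma adjusted p = 0.00155). Atf3, a stress-induced factor, went the other way, at 11.3, 12.2 and 10.6 against 3.81, 3.86 and 1.47 FPKM (log2 difference -1.67 ± 0.28 SE, limma adjusted p = 0.00597). For all 4 the groups did not overlap. Junb, the AP-1 subunit JunB, was at 76.0, 65.1 and 63.5 against 108, 117 and 70.0 FPKM and did not pass (limma adjusted p = 0.129). Among 29 genes of the ATF4 pathway and the unfolded protein response 4 rose and 5 fell (5 and 11 without Hoxa-flox 3, and 3 and 3 without any 1 of the other libraries). The enzymes of serine synthesis Psat1 and Psph differed in direction: Psat1 was at 43.5, 47.8 and 47.7 against 81.6, 79.6 and 121 FPKM (log2 difference 0.98 ± 0.18 SE, limma adjusted p = 0.00873) and Psph at 19.3, 16.3 and 20.8 against 9.49, 7.30 and 7.67 FPKM (log2 difference -1.11 ± 0.15 SE, limma adjusted p = 0.00283). Of 20 S100, galectin and annexin genes 2 rose and 4 fell (8 and 6 without Hoxa-flox 3, and 2 and 2 to 4 without any 1 of the other libraries). S100a10, the partner of annexin A2, was at 30.1, 27.8 and 29.1 against 98.5, 100.0 and 73.0 FPKM (log2 difference 1.59 ± 0.15 SE, limma adjusted p = 0.000665), and Anxa1, annexin A1, at 43.2, 37.7 and 40.0 against 12.2, 12.4 and 6.00 FPKM (log2 difference -1.94 ± 0.26 SE, limma adjusted p = 0.00274). Of 20 genes of iron and heme handling 2 fell, Fth1 and Hmox1 (9 fell and 1 rose without Hoxa-flox 3), and Tfrc, the transferrin receptor, was at 37.4, 38.7 and 41.2 against 8.45, 8.81 and 47.8 FPKM and did not pass (limma adjusted p = 0.169).

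**Figure D5:**
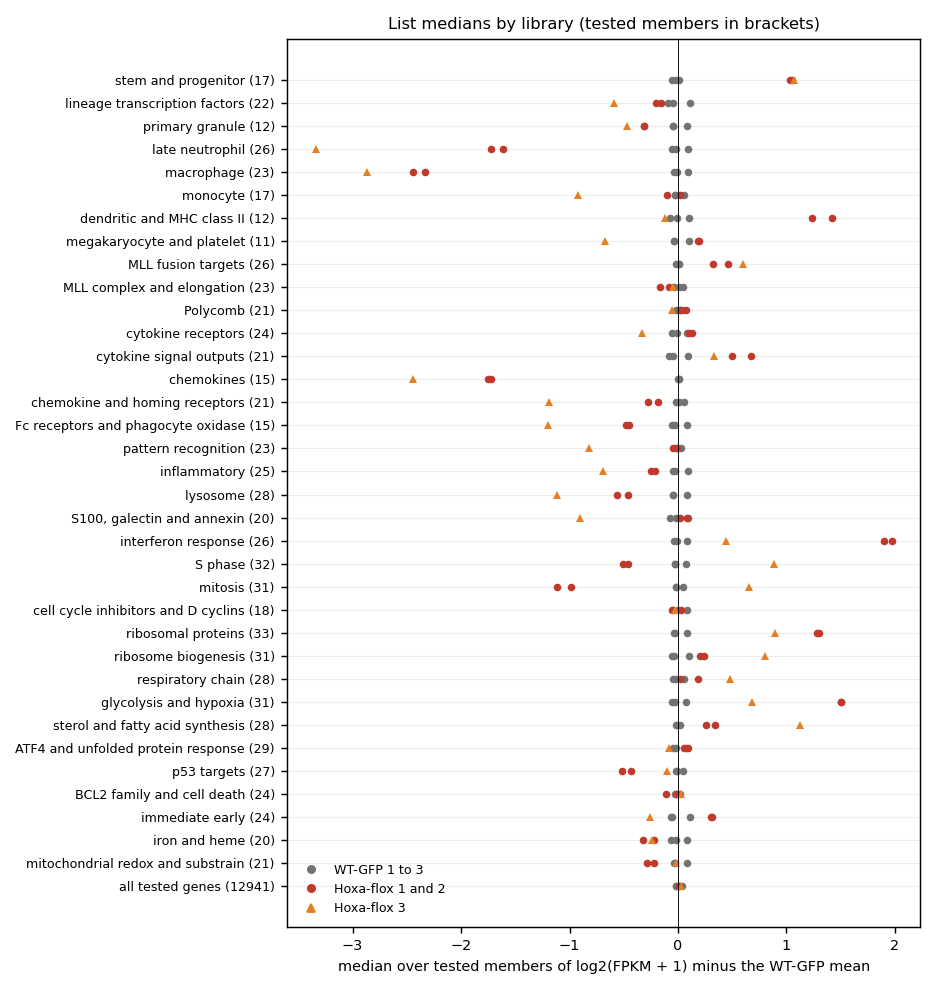
Median difference from the WT-GFP mean, in log2(FPKM + 1), over the tested members of each gene list, 1 point a library (grey WT-GFP 1 to 3, red Hoxa-flox 1 and 2, orange triangle Hoxa-flox 3), for lists with at least 10 tested members other than the list of RNA quality, and for all tested genes. Among these lists late neutrophil, macrophage and chemokine genes (medians over the 3 Hoxa-flox libraries -2.27, -2.48 and -2.20) lie farthest below 0, and the mitosis and S phase lists lie on opposite sides of 0 in Hoxa-flox 1 and 2 and in Hoxa-flox 3.

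The 15 largest rises by the log2 difference, from 4.59 to 8.98, were mostly genes that the wild type leukemia hardly expressed. Dlk1 (chr12:109452823-109463336, plus strand), an imprinted ligand-like membrane protein of progenitors, was at 0.0995, 0.129 and 0.150 against 574, 567 and 559 FPKM (log2 difference 8.98 ± 0.10 SE, limma adjusted p = 1.1e-07). Meg3 (chr12:109541001-109571726, plus strand), a noncoding RNA of the same imprinted region, was at 0, 0 and 0.00852 against 3.50, 3.57 and 3.81 FPKM (log2 difference 2.21 ± 0.14 SE, limma adjusted p = 0.000134). The 3 floxed libraries lay close together for both genes. Of the 7 tested imprinted genes 4 rose and 3 fell (2 to 4 and 1 to 2 without any 1 of the libraries other than Hoxa-flox 3). Cdkn1c, an imprinted cell cycle inhibitor, was at 11.3, 8.82 and 8.94 against 4.53, 4.90 and 2.72 FPKM (log2 difference -1.10 ± 0.21 SE, limma adjusted p = 0.0106, a call lost without WT-GFP 1). Tcf24, a bHLH factor, was at 0.0977, 0.231 and 0.120 against 119, 128 and 172 FPKM (log2 difference 6.92 ± 0.17 SE, limma adjusted p = 6.16e-06). Hnf4a (chr2:163506808-163572910, plus strand), a nuclear receptor best known from liver and gut, was at 0.0179, 0.0619 and 0 against 48.5, 50.6 and 37.1 FPKM (log2 difference 5.49 ± 0.16 SE, limma adjusted p = 8.87e-06). Pcdh7, a protocadherin, and Epha7, an ephrin receptor, were at 0.597, 0.389 and 0.316 against 115, 111 and 127 FPKM and 0.421, 0.375 and 0.442 against 50.1, 50.8 and 47.4 FPKM. The glutathione transferase Gstt1 was at 0.0821, 0 and 0.151 against 50.6, 48.6 and 7.58 FPKM, with Hoxa-flox 3 well below Hoxa-flox 1 and 2. Serpina3g was at 0.978, 0.627 and 0.492 against 104, 105 and 81.5 FPKM (log2 difference 5.85 ± 0.17 SE, limma adjusted p = 8.87e-06), and Ssbp2 at 1.12, 1.05 and 1.11 against 42.3, 44.4 and 64.1 FPKM (log2 difference 4.59 ± 0.18 SE, limma adjusted p = 2.37e-05). The other rises in this set were Thy1, Pbx3, Fgfbp3, Hist1h4m, Slc22a3, Abcc8 and 1700006J14Rik.

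The 15 largest falls, each of at least 5.04 in size, held 9 members of the lists above, among them Chil1, Spp1, Gpnmb, C1qb, C1qc, Apoe, Pf4 and Ccl2. Arg1, the arginase of alternatively activated macrophages, was at 197, 185 and 189 against 0.9302, 1.23 and 0.0558 FPKM (log2 difference -6.85 ± 0.28 SE, limma adjusted p = 2.37e-05). Shc3, an adaptor protein, was at 75.4, 86.6 and 84.5 against 0.905, 0.882 and 0.589 FPKM (log2 difference -5.54 ± 0.13 SE, limma adjusted p = 6.16e-06). Cchcr1 and BC021614 were at 392.2, 447 and 408 against 1.85, 1.94 and 0.196 FPKM and 209, 245 and 229.7 against 2.21, 2.55 and 0.479 FPKM. Arg1, Cchcr1 and BC021614 have several rows each, as do Pcdh7, Epha7, Ssbp2 and Pbx3 among the rises. Rn7sk, the noncoding RNA that holds the elongation factor P-TEFb, was at 45844, 56138 and 54297 FPKM in WT-GFP and was listed at 0 in all 3 Hoxa-flox libraries. A value of exactly 0 for so abundant an RNA can be a failed estimate of the software, so no fold is given. The summed level of 11 RNAs that report on RNA quality or on the nucleus, Rn7sk included, was 67380.4 to 80426 FPKM in WT-GFP and 26090.0 to 47294 FPKM in Hoxa-flox. Rn7sk made up most of this sum in WT-GFP and none of it in Hoxa-flox. The whole sums therefore do not show the direction of the other RNAs. With Rn7sk left out, the sum of the others was higher in every Hoxa-flox library than in any WT-GFP library. Of the 11 RNAs, 3 rose and 3 fell, with a median of 0.25. Their part in the other results was not tested. Malat1, a nuclear RNA, was at 1174, 1744 and 1586 against 875, 927 and 817 FPKM (log2 difference -0.76 ± 0.20 SE, limma adjusted p = 0.033, a call lost without WT-GFP 2 or 3 or Hoxa-flox 1 or 2 and in a fit of all 4 groups), and the mitochondrial mt-Co1 at 4102, 4633 and 4381 against 1958, 2464 and 4513 FPKM, where Hoxa-flox 3 lay within the WT-GFP range.

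The strain labels of the groups differ, and Nnt, a mitochondrial transhydrogenase gene, is known to be defective in the C57BL/6J substrain. It was at 32.4, 34.5 and 30.8 against 12.2, 12.04 and 17.4 FPKM (log2 difference -1.19 ± 0.16 SE, limma adjusted p = 0.00293). The Hoxa-flox libraries, labelled C57BL/6J, were the lower ones but not at 0. The ratio of means was 0.427. Of 21 tested genes of mitochondrial redox control 1 rose and 5 fell (5 and 11 without Hoxa-flox 3). Ucp2 was at 724, 621 and 653 against 379, 361 and 324 FPKM (log2 difference -0.91 ± 0.14 SE, limma adjusted p = 0.00456) and Prdx2 at 48.9, 44.0 and 45.9 against 79.9, 72.1 and 78.8 FPKM (log2 difference 0.72 ± 0.11 SE, limma adjusted p = 0.00378). The part of strain in these differences cannot be told apart from that of genotype or leukemia.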

How the data were processed

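The deposited table holds 1 value per row, named by gene symbol, and library for 12 libraries, of which 6 were used. Its unit is stated neither in the header nor in the labels. The authors' values were taken as FPKM, the unit of Cufflinks; per the submitters' processing notes the tools were Cuffdiff 2.2.2.20150701, Cufflinks and STAR, and mm10 and GRCm38 the builds, with no role or order. Of 25263 symbols, 1855 had several rows (4634 of 28042 rows), and of these the one of highest mean stood for the symbol. Between 35.8% and 46.5% of a library's summed FPKM lay in its 10 highest rows, led by Snn or Tep1, so some rows may hold more than the named gene.

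Here, log2(FPKM + 1) was compared with limma 3.58.1 (limma-trend; R 4.3.3) in the 6 libraries, without a term for the replicate number, over symbols whose mean reached 1 FPKM, and p-values were adjusted by Benjamini-Hochberg and called under 0.05. The code was tested on simulated data. Figures were drawn with matplotlib 3.10.9, and tables made with pandas 2.3.3 and numpy 2.4.6 in Python 3.11.15. Depth was estimated from the step that 1 fragment makes in 2543 genes with 1 annotated transcript of over 1500 bases. Coordinates are those of GENCODE M21 (GRCm38), matched by symbol, and promoter sequences (250 bases before the start) those of RefSeq (GRCm38.p6).

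The members and gene lists were chosen with earlier results of these data known. Named by rule were the 15 largest rises and 15 largest falls past the threshold, with groups that do not overlap and at least 5 FPKM in the higher group, every Hoxa gene with a row, and from each list the 6 members of smallest adjusted p and the 2 of highest mean; others are given as further list members. Some genes of the lists are not reported here. The alternatives tried were no filter or a minimum of 5 FPKM, a pseudocount of 0.1, array weights, values rescaled to equal upper quartiles, a fit of all 4 groups, the replicate number as a block, summed rows of repeated symbols, each library left out, and Hoxa-flox 3 alone against WT-GFP.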

Additional observations from a re-analysis of the deposited data

How the results depend on the processing

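Against 3678 genes past the threshold, array weights gave 9330 and Hoxa-flox 3 alone against WT-GFP gave 6469. Leaving out 1 library gave 1961 to 7614. The other settings stayed within 1.5 times: 3617 with a pseudocount of 0.1, 4176 of 23839 genes without a filter, 2457 of 9009 with a minimum of 5 FPKM, 3715 with equal upper quartiles, 3525 in a fit of all 4 groups and 3768 with summed rows. With the replicate number as a block 2900 passed. The labels do not say what a number marks, and libraries with the same number did not deviate together (correlations of deviations 0.201, -0.094 and 0.059), so the numbers were not taken to pair the libraries. Without Hoxa-flox 3, Ncl (-0.28, limma adjusted p = 0.0309) and Vegfa (0.56, limma adjusted p = 0.00128) passed in the direction opposite to that in all 6 libraries; without Hoxa-flox 2 Ncl was at 0.64, and without Hoxa-flox 1 Vegfa was at -0.64. Over 342 named genes, 220 values in 59 genes lost the threshold, 212 of them on leaving out 1 library, and 70 values in 60 genes gained it. Of 45 list medians, 17 moved by more than the spread of the floxed libraries in 31 values. The cause was not tested.

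With 3 libraries a group, and 1 of the floxed libraries apart from the rest, a gene that does not pass is not shown to be equal. FPKM hold no counts, so counting error was not modelled.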
